A study of Mus musculus with 6 samples.

Results

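Class I myosins are single-headed actin motors that join actin filaments to membranes, and 4 of their genes are described here: Myo1e, the gene targeted for knockout, and Myo1c, Myo1d and Myo1h. They were found by symbol among the 11452 genes of the deposited expression table, and all 4 were present. The cells were 4T1, a mouse mammary tumour line, in pools whose genotype is labelled Myosin 1e WT (wild type) or Myosin 1e KO (knockout), with 3 RNA sequencing libraries each and no treatment or time point. The sources used here do not say how the knockout was made, or whether the pools were separate edits or cultures, so p-values measure only the spread between these libraries. Libraries are called by genotype and by the number in their column name, 1, 2 or 4, whereas the sample titles count pools 1 to 3. Where 3 values are given for a genotype, they follow the order 1, 2, 4.

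Each class I myosin has a motor head that hydrolyses ATP on actin, a neck that binds calmodulin as its light chain, and a tail that binds acidic membrane lipids. Myosin 1e is a long-tailed member whose tail ends in an SH3 domain, which binds dynamin and synaptojanin 1, and it is known for roles in endocytosis, in actin-rich protrusions and adhesions, and in the filtration barrier of the kidney. Myosins 1c, 1d and 1h are short-tailed. Myosin 1c takes part in membrane delivery, including that of the insulin-responsive glucose transporter, and in adaptation of hair cells of the inner ear. Myosin 1d is known for its role in left-right asymmetry.

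In the KO pools Myo1e transcript was still present, at 0.884 times the WT level on average. It was lower than in WT in all 3 numbers, as were 17.0% of all genes tested. The other 3 genes differed between the genotypes by -0.01 (Myo1c), 0.03 (Myo1d) and 0.04 (Myo1h) on the log2 scale, and no gene of the 4 passed the test over all genes. Myo1c and Myo1d moved with the library number instead, in opposite directions: in the libraries numbered 4 Myo1c fell to 0.611 times and Myo1d rose to 1.97 times its level in those numbered 1 and 2. Myo1e and Myo1h did not pass the test between the library numbers, which 65.6% of all genes tested passed.

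The 4 genes lie on 3 chromosomes of the GRCm38 build, by the GENCODE M21 annotation. Myo1e spans positions 70207350 to 70399766 of chromosome 9 on the plus strand, and its longest coding transcript has 28 exons and 4625 bases. Myo1c spans 75650504 to 75673910 of chromosome 11 on the plus strand, with 32 exons and 4718 bases. Myo1d lies on the minus strand of the same chromosome, from 80482126 to 80780025, with 22 exons and 5354 bases. Myo1h spans 114289166 to 114365357 of chromosome 5 on the plus strand, with 31 exons and 4631 bases. The transcripts are thus of similar length.

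Reads can be assigned to Myo1e, Myo1c and Myo1d with little ambiguity, and to Myo1h with more. No run of 50 bases in the longest coding transcript of Myo1e, Myo1c or Myo1d occurs on either strand in a transcript of another gene. In Myo1h, 21.0% of such runs occur on the opposite strand in Kctd10, whose exons overlap those of Myo1h over 1530 bases. Kctd10, which encodes an adaptor of a ubiquitin ligase, was at 180.3 to 207.1 CPM (counts scaled by library size) in the 6 libraries, against 4.69 to 5.78 CPM for Myo1h. The libraries came from a stranded mRNA kit, but the sources used here do not give the strand setting of the authors' read counting. If reads were counted without strand, those from the overlap cannot be assigned to Myo1h or to its antisense neighbour.

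RefSeq gives 1 transcription start for Myo1e and 3 for Myo1c on GRCm38.p6, and 3 of the 4 genes, all but Myo1d, are in its promoter table as used here. The 250 bases before the Myo1e start and before the first Myo1c start are shown because these are the starts of the targeted gene and of the most abundant of the 4, and the values of Myo1c sum over all its starts. Capitals mark a CArG box, the element bound by serum response factor, and the motifs CCAAT and GGGCGG, on either strand.
Myo1e, chr9:70207100-70207349, plus strand: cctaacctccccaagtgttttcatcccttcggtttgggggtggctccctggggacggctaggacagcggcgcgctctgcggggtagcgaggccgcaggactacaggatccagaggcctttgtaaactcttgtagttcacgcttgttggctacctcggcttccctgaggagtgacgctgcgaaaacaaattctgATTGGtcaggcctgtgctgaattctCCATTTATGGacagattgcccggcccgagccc
Myo1c, first start, chr11:75650269-75650518, plus strand: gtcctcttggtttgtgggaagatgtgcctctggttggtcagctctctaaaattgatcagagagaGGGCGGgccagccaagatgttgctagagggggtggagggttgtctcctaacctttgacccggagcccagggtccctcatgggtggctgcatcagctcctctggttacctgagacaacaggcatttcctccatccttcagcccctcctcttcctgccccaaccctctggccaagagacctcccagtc
The Myo1e stretch holds 1 CArG box, CCATTTATGG, whose first base lies 32 bases before the start, and 1 CCAAT motif, which is on the opposite strand and does not overlap it. The Myo1c stretch holds 1 GGGCGG. Neither stretch holds TATAAA. The search was chosen after the sequences had been read. Of 32851 RefSeq starts, 1.467% have a CArG box in the 250 bases before them, 33.85% a CCAAT motif, 32.742% a GGGCGG and 12.368% a TATAAA. The 2 other Myo1c windows and both Myo1h windows hold no CArG box. These matches describe letters and not binding.

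The levels are log2 CPM as deposited. Whole reads could be recovered from them, and the table held 17772003 to 19988206 reads per library. Of the mammary epithelial markers, 6 of 7 were present (Epcam, Cdh1, Krt8, Krt18, Krt19 and Krt14), at a summed 2501 to 3311 CPM in KO and 2772 to 3788 CPM in WT. Of the fibroblast markers 1 of 7 was in the table, Pdgfra at 7.88 to 12.2 CPM in KO and 9.42 to 11.3 CPM in WT, and of the leukocyte markers 1 of 6, Cd68 at 4.51 to 7.88 and 3.98 to 6.99 CPM. The table holds none of the 4 endothelial and 4 muscle or myoepithelial markers, nor the defining markers Ptprc and Col1a1. Every gene it holds reached at least 0.018 log2 CPM in 2 or more libraries. A missing gene may thus be expressed below such a level. In the libraries numbered 4 the epithelial markers moved in both directions: Epcam and Cdh1 rose by 0.46 and 0.36 on the log2 scale, Krt8, Krt14 and Krt19 fell by 1.27, 1.44 and 0.29, and Krt18 did not pass. In that comparison 65.6% of all genes tested passed, 31.8% higher and 33.8% lower. The sum of the 6 markers was 2501 to 2772 CPM in number 4 against 3164 to 3788 CPM in numbers 1 and 2. Their part in the differences by number was not tested. In cultures of this kind, fewer cells that express a gene and less RNA of that gene per cell cannot be told apart.

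Myo1e, examined first as the targeted gene, was at 6.87, 6.81 and 6.81 log2 CPM in KO, against 7.09, 7.02 and 6.91 in WT. Every KO library was below every WT library, and WT 4 was nearest to the KO values. Among the 11269 genes tested, 1.59% had all KO libraries below all WT libraries in this way, and 17.0% were lower in KO within all 3 numbers. These levels rest on 2265, 1942 and 2340 reads in KO and on 2639, 2415 and 2244 reads in WT. In linear terms Myo1e was at 114 ± 2.57 CPM in KO and 129 ± 8.41 CPM in WT (SD, n = 3).

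Within numbers, Myo1e in KO was at 85.5% of WT in number 1, at 86.4% in number 2 and at 93.7% in number 4. On the log2 scale these differences were -0.23, -0.21 and -0.09. The 95% intervals for counting error alone, by the exact binomial method, were -0.31 to -0.15, -0.30 to -0.12 and -0.18 to -0.01. All 3 intervals lie below 0, and they cover no difference between cultures. Across all genes tested, the middle 90% of differences ran from -0.47 to 0.27 in number 1, from -0.35 to 0.35 in number 2 and from -0.32 to 0.31 in number 4. The Myo1e values thus lay within the range of most genes.

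**Figure D1:**
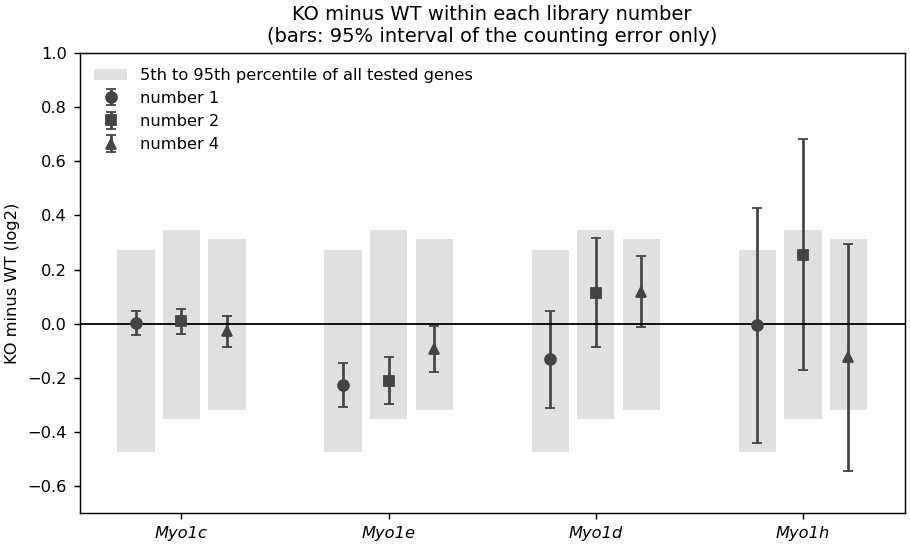
KO minus WT on the log2 scale (y axis) for each gene (x axis) and library number (circle 1, square 2, triangle 4). Bars are 95% intervals for counting error, and grey bands run from the 5th to the 95th percentile of all 11269 genes tested. The 3 Myo1e points lie at -0.23, -0.21 and -0.09, inside the bands and below 0, while the 3 Myo1c points lie within 0.03 of 0.

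Fitted over both genotypes with limma, which estimates the spread of each gene with help from all genes, Myo1e differed by -0.18 (SE 0.09, 95% interval -0.40 to 0.05). It did not reach an adjusted p (Benjamini-Hochberg, over all genes) of 0.05, with an adjusted p of 0.9999 and an unadjusted p of 0.10. Neither did any other gene: 0% of the 11269 genes were called, and 0.204%, or 23 genes, had an unadjusted p under 0.05. This fit leaves the difference between library numbers in the spread of each gene. With the number as a replicate block in limma, 1 gene was called (0.00887%), which was Txnip, named after its values were seen. The blocked difference of Myo1e had an SE of 0.05 and an interval of -0.29 to -0.06, which is 0.816 to 0.958 times WT, with an unadjusted p of 0.0067 and an adjusted p of 0.32. An unadjusted p under 0.05 was seen for 9.91% of genes in that fit, and for 5.08% with KO lower. Thus the lower Myo1e level was larger than the spread within numbers but not past the threshold over all genes. All 6 epithelial markers measured had a lower mean in KO, as had 5958 of the 11269 genes tested. The median difference of the markers was -0.15, and 0 of 6 passed the test with or without the block. Krt19 differed by -0.26 and was lower in all 3 numbers (unadjusted p = 0.00072, adjusted p = 0.21 in limma with the block), and Epcam by -0.19 (unadjusted p = 0.016, adjusted p = 0.39), lower in 2 of 3. Cdh1, Krt8, Krt18 and Krt14 were likewise lower in 2 of 3 numbers and higher in the other. The part of these markers in the Myo1e difference was not tested. A value over the whole gene adds up reads of all exons and does not show whether an edited site was altered or protein was made.

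Whether Myo1e differed between genotypes by a different amount in number 4 was tested as an interaction. KO minus WT was -0.09 in number 4 and -0.22 in numbers 1 and 2, a change of 0.12 (SE 0.11, interval -0.13 to 0.38, adjusted p = 0.9969 in limma). No gene was called for this term (0%), and 3.90%, or 440 genes, had an unadjusted p under 0.05. With limma voom, which models recovered reads, 0 were called and 468 had an unadjusted p under 0.05. With 1 library of number 1 or 2 left out, the limma fit kept 1 residual degree of freedom. Genes were then called without WT 1 or without WT 2, but not without KO 1 or KO 2. The absence of calls thus did not hold in every setting, and such calls are no result about genes.

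Among the short-tailed members, Myo1c was at 8.73, 8.73 and 8.00 log2 CPM in KO, against 8.73, 8.72 and 8.03 in WT. Values with the same number were nearly equal in both genotypes, and the 2 libraries numbered 4 were lower than the other 4. KO was at 100.1%, 100.7% and 98.1% of WT within numbers 1, 2 and 4. With 4895 to 8257 reads per library, each counting interval of these differences included 0, and the widest ran from -0.08 to 0.03. The genotypes differed by -0.01 (SE 0.28) in limma without the block and, with it, by the same amount with an interval of -0.11 to 0.10. This was the narrowest blocked interval of the 4 genes.

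Myo1d was at 4.67, 4.56 and 5.66 log2 CPM in KO, against 4.80, 4.45 and 5.54 in WT. The 2 libraries numbered 4 were higher than the other 4, and the genotypes overlapped. KO was at 91.3% of WT in number 1, 108.2% in number 2 and 108.6% in number 4, so the direction differed between numbers. The mean difference was 0.03 (SE 0.39), and with the block its interval was -0.14 to 0.21 in limma. Levels in WT 1 and WT 2 differed by 0.36, which is more than any of the 3 differences between genotypes.

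Myo1h was the least abundant of the 4, at 2.25, 2.54 and 2.26 log2 CPM in KO, against 2.25, 2.29 and 2.39 in WT. Its 90 to 100 reads per library gave counting intervals within numbers of -0.44 to 0.43, -0.17 to 0.68 and -0.54 to 0.29. KO was at 99.6%, 119.4% and 91.7% of WT in numbers 1, 2 and 4, and the mean difference was 0.04 (SE 0.17, interval -0.37 to 0.45). A difference of the size seen for Myo1e was not detectable at this depth. Kctd10, its antisense neighbour, was at 101.0%, 108.9% and 101.8% of WT in numbers 1, 2 and 4. The Kctd10 level was highest in KO 1 and WT 1, at 7.69 and 7.68 log2 CPM, where Myo1h had 91 reads each. At 90 to 100 reads per library, the Myo1h levels do not rank the libraries. Whether reads of Kctd10 add to the Myo1h values was not tested.

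**Figure D2:**
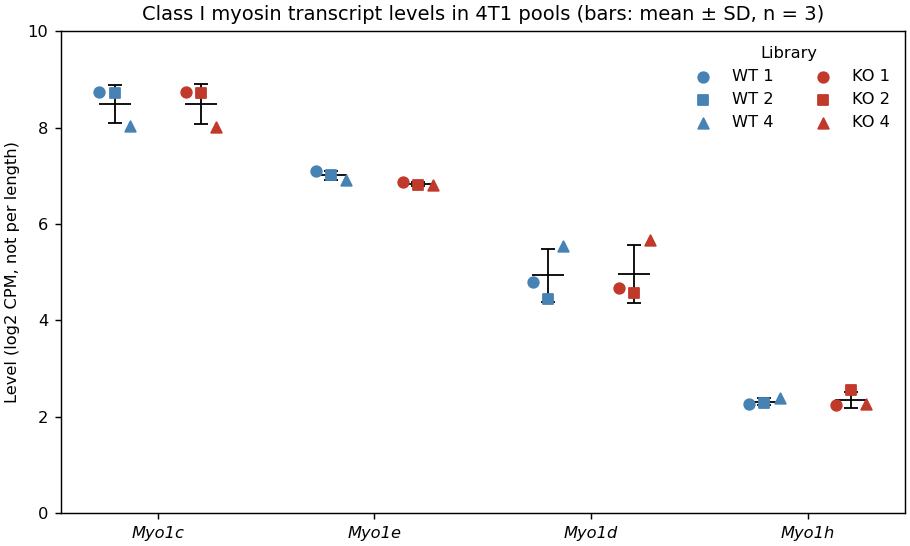
Level of each gene in log2 CPM (y axis, not corrected for length) for the 4 genes (x axis) in each library, with WT in blue, KO in red and the marker shape giving the number. Bars are mean ± SD of the 3 libraries of a genotype. The triangles of number 4 lie below the other libraries for Myo1c and above them for Myo1d.

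Divided by the length of the longest coding transcript, the order of the genes was Myo1c, Myo1e, Myo1d and Myo1h in every library. Myo1c was at 78.1 ± 20.5 CPM per kb in KO and 78.2 ± 19.7 in WT (SD, n = 3). Myo1e followed at 24.6 ± 0.555 and 27.8 ± 1.82, Myo1d at 6.20 ± 2.81 and 5.99 ± 2.41, and Myo1h at 1.10 ± 0.132 and 1.06 ± 0.053 CPM per kb. Neighbours in this order did not overlap in any library: the lowest Myo1c value was 54.3 and the highest Myo1e value 29.5, the lowest Myo1e value was 24.3 and the highest Myo1d value 9.44, and the lowest Myo1d value was 4.07 and the highest Myo1h value 1.25.

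Of the summed CPM of the 4 genes, Myo1e made up 20.4%, 19.9% and 26.5% in KO, against 23.0%, 22.5% and 27.7% in WT. The Myo1e share was lower in KO within each number, with differences of -2.59, -2.65 and -1.19 percentage points, and higher in both libraries numbered 4 than in the other 4. The exact 95% binomial intervals, for counting error only, were 19.6% to 21.2% in KO 1 and 22.2% to 23.8% in WT 1, which do not overlap. In number 4 they did overlap, at 25.6% to 27.4% in KO and 26.7% to 28.7% in WT. The means were 22.3% ± 3.68 in KO and 24.4% ± 2.85 in WT (SD, n = 3). An exact two-sided permutation test of the 3 against 3 libraries gave p = 0.5 (adjusted p = 0.9 over the 4 genes), where the smallest p possible is 0.1. This test does not pair libraries by number, so the difference between numbers is part of its spread. It therefore does not test the differences within numbers.

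Myo1c held most of the sum, 71.5% to 74.9% in the libraries numbered 1 and 2 and 60.4% to 60.5% in those numbered 4. Myo1d made up 3.78% to 4.69% in numbers 1 and 2 and 10.7% to 11.9% in number 4. Myo1h stayed between 0.793% and 1.20% in all 6 libraries. Since shares add up to 100%, a lower Myo1c level raises the others, and Myo1e gained share in number 4 while its own level there was no higher. The 4 genes together summed to 564.7 to 594.1 CPM in numbers 1 and 2 and to 423.9 to 433.0 CPM in number 4. The sums were 520.3 ± 83.5 CPM in KO and 534.7 ± 88.4 CPM in WT (SD, n = 3, exact permutation p = 0.5). Here too the test does not pair libraries by number. By number, the sums were 572.3, 564.7 and 423.9 CPM in KO against 594.1, 576.9 and 433.0 CPM in WT, lower in KO each time.

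**Figure D3:**
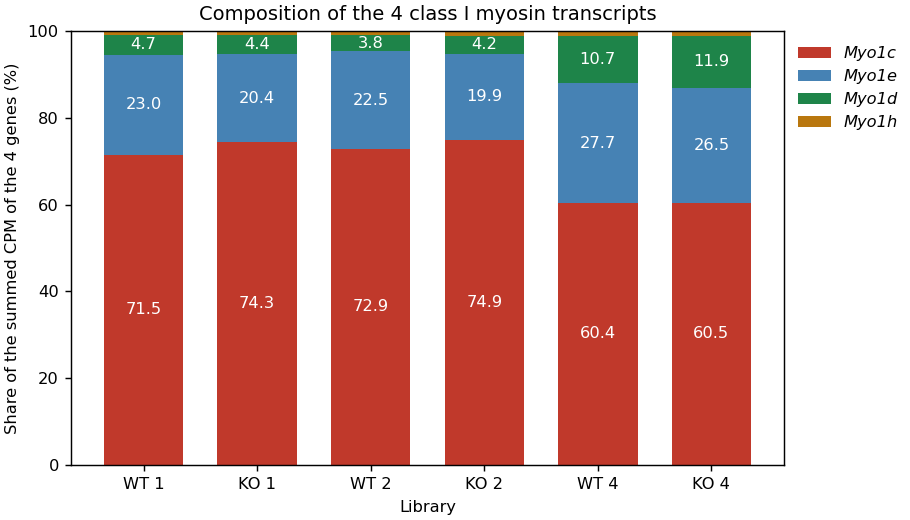
Share of each gene in the summed CPM of the 4 genes (y axis, percent) in each library (x axis, ordered by number, WT before KO). Myo1c falls from 71.5% to 74.9% in numbers 1 and 2 to about 60.4% in number 4, and Myo1d rises from at most 4.69% to at least 10.7%.

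The libraries numbered 4 stood apart across the whole transcriptome. Compared with numbers 1 and 2, with the genotype in the fit, limma called 65.6% of the 11269 genes, 31.8% higher and 33.8% lower in number 4. The sources used here do not say what the number stands for, and with 1 library numbered 4 in each genotype it is not mixed up with the knockout. Counts of members called in this comparison are to be read against that background.

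Of the 4 genes, 1 rose, 1 fell and 2 did not pass in number 4. Myo1c fell by 0.71 on the log2 scale (SE 0.05, adjusted p = 2.7e-06 in limma), to 60.4% of numbers 1 and 2 within KO and to 61.9% within WT. Myo1d rose by 0.98 (SE 0.10, adjusted p = 3.6e-05), to 206.0% within KO and 188.5% within WT. For both genes the libraries numbered 4 did not overlap the others, as for 37.0% of all genes in the lower direction and 35.8% in the higher one. In size, the Myo1d difference within KO exceeded that of 88.5% of all genes tested, and the Myo1c difference that of 76.8%.

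Myo1e differed by -0.09 in number 4 (SE 0.06, interval -0.22 to 0.04, adjusted p = 0.19 in limma), with -0.03 within KO and -0.15 within WT. With quantile normalization, which gives all libraries the same distribution of values, this difference was 0.016, so its direction depends on the scaling. WT 4 lay below WT 1 and WT 2, and KO 4 lay between KO 2 and KO 1, so the 2 genotypes were closer in number 4, a change that did not pass the interaction test above. Myo1h differed by -0.01 (SE 0.16, interval -0.36 to 0.35), with -0.13 within KO and 0.12 within WT. The intervals of the Myo1c and Myo1d differences, -0.82 to -0.60 and 0.74 to 1.21, do not overlap those of Myo1e and Myo1h. Under quantile normalization, however, the Myo1h interval, -0.65 to 0.06, overlapped that of Myo1c, -0.64 to -0.43.

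**Figure D4:**
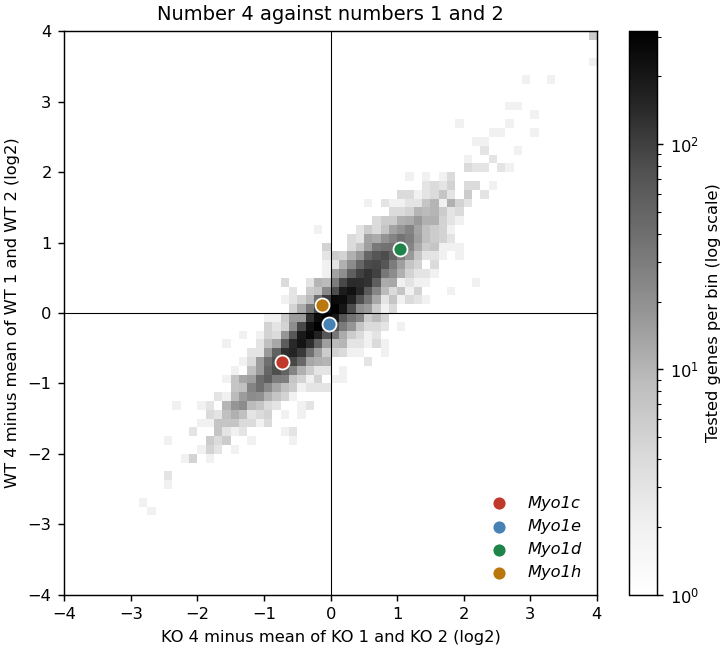
Difference between number 4 and the mean of numbers 1 and 2 on the log2 scale, within KO (x axis) and within WT (y axis). Grey shading gives the count of all 11269 genes tested per bin on a log scale, with 15 genes at or beyond 4 on either axis placed in the outermost bins, and coloured points are the 4 genes. Myo1d lies in the upper right at 1.04 and 0.91, Myo1c in the lower left at -0.73 and -0.69, and Myo1e and Myo1h near the centre.

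Calmodulin is the light chain of these motors. Calm2 was at 8.97, 8.82 and 8.45 log2 CPM in KO, against 8.95, 8.85 and 8.70 in WT, and in number 4 it fell by 0.32 (SE 0.07, adjusted p = 0.0039 in limma). Calm3 was at 8.09, 8.08 and 7.24 in KO, against 8.16, 8.20 and 7.35 in WT, and fell by 0.84 in number 4 (SE 0.05, adjusted p = 9.9e-07). Both were lowest in number 4 within each genotype. Between genotypes Calm2 differed by -0.08 and Calm3 by -0.10, and neither passed the test. The cytoplasmic actin genes, whose products form the track, also fell in number 4, Actb by 1.55 (SE 0.08) and Actg1 by 1.91 (SE 0.08), and differed between genotypes by -0.06 and -0.05. Of all genes tested, 33.8% were called lower in number 4, and 37.0% had both libraries numbered 4 below all others. A fall in number 4 is thus common among all genes.

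Of 10 genes whose products are known to bind myosin 1e or myosin 1c, 9 were in the table. None passed for KO against WT, with 4 lower and 5 higher and a median difference of 0.01 beside -0.01 over all genes. The SH3 ligands Dnm2, a dynamin that cuts vesicles from the membrane, and Synj1, the lipid phosphatase synaptojanin 1, differed by 0.02 and 0.10 between genotypes. Wasl, an activator of branched actin assembly, was at 6.32, 6.19 and 6.62 log2 CPM in KO, against 6.10, 6.01 and 6.52 in WT, higher in KO in all 3 numbers by 0.17 on average (adjusted p = 0.36 in limma with the replicate block). The WASP-interacting protein gene Wipf1 and the tight junction gene Tjp1 differed by 0.08 and -0.04, the capping protein regulator Carmil1 by 0.01, and Rala and Ralb, small GTPases of membrane delivery, by -0.02 and -0.01. Dnm1, a further dynamin gene, differed by -0.19. Like Wasl, the genes Synj1, Dnm2 and Wipf1 were higher in KO in all 3 numbers. Over all genes tested 17.0% were lower in KO in all 3 numbers, and the share that was higher is not given here.

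In number 4, 5 of these 9 genes were higher and 1 was lower, with a median of 0.17 beside 0.003 over all genes. A share of 65.6% of all genes was called in that comparison, so the count of 6 of 9 is near the background and is no result about these partners. Dnm1 rose by 1.26 (SE 0.20), Wipf1 by 0.71 (SE 0.06), Tjp1 by 0.42, Wasl by 0.41 and Carmil1 by 0.17 on the log2 scale, and Ralb fell by 0.45. Dnm2, Synj1 and Rala differed by -0.03, 0.05 and 0.001 and did not pass.

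The genes whose levels ran most like those of Myo1e over the 6 libraries were Robo1, Sharpin and Mpc1, with Pearson's r of 0.984, 0.972 and 0.964. These are descriptions over 6 points that share libraries and depth, taken among 11025 genes that varied at least by 0.5 times the range of Myo1e, of which 34 had an r above 0.9. Robo1, a guidance receptor gene, was at 1.15, 1.05 and 1.08 log2 CPM in KO, against 1.75, 1.46 and 1.30 in WT. For Myo1c the nearest were Pgd, Espl1 and Pclaf, each with an r of 1.00 after rounding, and for Myo1d Usp20, Pink1 and Mapre3, with r of 0.999, 0.999 and 0.998. Among genes of sufficient range, 2640 of 8303 had an r above 0.9 with Myo1c and 1580 of 5359 with Myo1d, so these patterns, which follow the number, are common. For Myo1h the nearest were Cux1, Rae1 and Slc4a3 (r of 0.962, 0.946 and 0.943). Among the members, Myo1c and Myo1d ran opposite to each other (r = -0.969), and Myo1e had an r of 0.404 with Myo1c and -0.347 with Myo1d.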

How the data were processed

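RNA of 4T1 pools was sequenced in 3 libraries per genotype from a stranded mRNA kit, per the labels' protocols. Tools listed in the submitters' processing notes are edgeR, Subread 1.6.4 with featureCounts, STAR 2.7.3a and Trimmomatic 0.39, and the build is GRCm38. The authors deposited log2 CPM, with 1 column per library. Annotation, strand setting, scaling and filter: not given in the sources used here.

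Linear values less the value of 0 reads (log2 CPM -4.25) were whole multiples of 1 step in 100% of cases (tolerance 0.01), which gave reads and effective library sizes of 0.971 to 1.07 times the reads. The floor of 3 reads is 0.144 to 0.173 CPM.

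limma 3.58.1 in R 4.3.3 was fitted to the deposited log2 CPM of the 11269 genes with at least 0 in at least 3 libraries, with a trended variance, two-sided, at an adjusted p of 0.05, and was tested on simulated data. All 4 members passed the filter. Columns 1 and 2 match pools of the same number, and columns 4 match a genotype only. Deviations from the genotype means of same-numbered KO and WT libraries correlated at 0.744, 0.784 and 0.921 for numbers 1, 2 and 4, all over 0.1, so the number was taken to pair them. Libraries 1 and 2 were nearly as close across numbers, as KO 1 with WT 2 and KO 2 with WT 1 correlated at 0.687 and 0.617. These values are also over 0.1, so that bound cannot pair numbers 1 and 2. Pairing within numbers 1 and 2 rests on a small margin. Between libraries of a genotype, chi-square over its degrees of freedom was at least 4.89, above sampling noise.

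Named genes are the 4 members, the listed light chains, partners and actins, and the 3 genes with the highest Pearson r for each member. The members and lists were chosen with earlier results of these data known. Another class I myosin and part of the light chain list are not reported here. Alternatives concerned filter, prior, scaling, variance, voom, block, terms for the number, transcript length and each library left out. Intervals for reads cover counting error only.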

Additional observations from a re-analysis of the deposited data

How the results depend on the processing

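The absence of called genes for KO against WT held with each filter, pseudocount, scaling and variance and with any 1 library left out (0 to 0 genes). With the replicate block 1 gene was called, alone, with limma voom or with the transcript length correction. In KO minus WT Myo1e kept its direction in every setting run, at -0.228 to -0.134 with 1 library left out. In libraries 1 and 2 only, Myo1c differed by 0.0056 and Myo1d by -0.0090, opposite to the mean. With 1 library left out Myo1c ran from -0.237 to 0.236 and Myo1d from -0.314 to 0.339, since the numbers are then unequally shared. Myo1h ran from -0.056, without KO 2, its highest library, to 0.094.

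For number 4, the calls ranged from 5592 to 7495 genes with 1 library left out, Myo1c from -0.727 to -0.693 and Myo1d from 0.912 to 1.06, past the threshold each time. Myo1e ran from -0.152 to -0.027 and was 0.0158 with quantile normalization, and Myo1h ran from -0.131 to 0.117 and was -0.296 with quantile normalization. The interaction called 0 to 269 genes with 1 library of number 1 or 2 left out, 145 without WT 1 and 269 without WT 2. Its member values were 0.089 to 0.161 for Myo1e, -0.042 to -0.026 for Myo1c, -0.050 to 0.306 for Myo1d and -0.397 to -0.098 for Myo1h. Differences in share were -4.26 to -0.502 percentage points for Myo1e, -2.28 to 6.38 for Myo1c, -2.09 to 2.61 for Myo1d and -0.030 to 0.172 for Myo1h.

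The cause of the other changes was not tested. The transcript length correction, the block with voom, voom for the interaction and its left-out libraries were chosen after seeing the data. The count tests of edgeR and DESeq2 were not run, since the deposited values are logarithms, and the interaction has no value without KO 4 or WT 4. With 90 to 100 reads, depth limits Myo1h.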
